A study of Mus musculus with 24 samples.

Results

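The respiratory chain of the mitochondrial inner membrane was followed through its subunit genes in mouse bone marrow macrophages. The subunits were taken as the protein-coding genes whose symbols begin with Nduf and a subunit letter and number (complex I), are Sdha to Sdhd (complex II), begin with Uqcr (complex III), with Cox4 to Cox8 (complex IV) or with Atp5 (complex V), together with the protein-coding genes of mitochondrial DNA. That rule found 98 of 54532 listed genes, of which 85 lie in the nucleus and 13 in mitochondrial DNA. Of these, 92 had enough reads to be tested, 79 nuclear and all 13 mitochondrial. The tested nuclear genes numbered 36 for complex I, 4 for complex II, 8 for complex III, 14 for complex IV and 17 for complex V. Ndufab1, Cyc1 and Cycs fall outside the name rule, Atp5s falls inside it, and Ndufa4 is counted under complex I by its name although its protein is found in complex IV.

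Complexes I to IV pass electrons from NADH and succinate to oxygen, and complexes I, III and IV pump protons while they do so. Complex V, the ATP synthase, lets the protons back and makes ATP. Complex II is built from nuclear genes alone, whereas the other complexes mix nuclear subunits, made in the cytosol and imported, with a few core subunits made inside the mitochondrion, so that both genomes supply a single machine. In macrophages the balance between the respiratory chain and glycolysis is known to shift with activation state.

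The cells were macrophages grown from tibial marrow of C57BL/6 mice aged 2 to 3 months with CSF-1, the macrophage growth factor, at 120 ng/ml. All cultures were starved of serum for about 16 h, and the treated ones then received TGF-b1, a cytokine that signals through the transcription factors Smad2 and Smad3, at 10 ng/ml for 4 h. There were 4 genotypes, Smad2fl/fl and MyS2KO (the Smad2 line) and Smad3fl/fl and MyS3KO (the Smad3 line). Smad2fl/fl and Smad3fl/fl mice carry loxP-flanked alleles and no Cre per the labels. MyS2KO mice are Smad2fl/fl with LyzMCre and MyS3KO mice are Smad3fl/fl with LyzMCre, a Cre recombinase driven in myeloid cells by the lysozyme M promoter, so that loss depends on how completely Cre acts in each culture. Each genotype was measured untreated and with TGF-b1 in 3 libraries, 24 in all, of 16868501 to 24918582 counted reads. Values below are CPM, read counts scaled to a common library total, or FPKM, the authors' values scaled to gene length as well, where levels of different genes are compared. The labels do not say whether the 3 libraries of a group came from separate animals, so p-values measure the spread between these libraries, which may be technical.

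In the libraries labelled MyS2KO, Smad2 RNA was 40.4 ± 2.9 CPM untreated (SD, n = 3) and 40.3 ± 6.31 with TGF-b1, against 42.2 ± 2.98 and 37.7 ± 1.65 in Smad2fl/fl, and did not pass the test (log2 difference -0.06, adjusted p = 0.924, and 0.09, adjusted p = 0.891, by edgeR's quasi-likelihood test). Gene-level counts of this kind cannot show the loss of single exons, so the Smad2 label is neither borne out nor contradicted by them. Smad3 RNA was 424 ± 48.2 CPM in untreated Smad3fl/fl and 184 ± 24 in MyS3KO, a log2 difference of -1.21 (adjusted p = 6.91e-06). With TGF-b1 it was 415 ± 23.1 and 268 ± 19.8 (log2 difference -0.63, adjusted p = 0.00208). Smad3 was far lower in the other line, at 41.5 ± 3.97 CPM in untreated Smad2fl/fl, so the 2 floxed controls differed at Smad3 itself (log2 3.35, adjusted p = 1.12e-12). The 7 macrophage markers summed to between 14810 and 30616 CPM in every library, most of it Adgre1 and Lyz2. The markers did not move together between the floxed lines. In untreated Smad2fl/fl and Smad3fl/fl the mean of Lyz2 was 11232 and 4047 CPM and that of Adgre1 10843 and 12343. The other macrophage markers, such as Fcgr1 (2145 and 1109), had lower means in Smad3fl/fl. Lyz2 was at 6075 CPM in untreated MyS2KO. The 8 neutrophil markers summed to 1.01 to 23 CPM the 5 dendritic cell markers to 14.1 to 39.8, nearly all of it Xcr1, and the 4 endothelial markers to 32.5 to 168, mostly Kdr and Pecam1. The fibroblast, lymphocyte, erythroid and mast cell or basophil lists summed to at most 2.85, 4.08, 1.04 and 0.311 CPM.

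Near-identical sequences of 2 kinds bear on how these subunits can be counted, and the members affected are shown here because later results turn on them. Ndufs5, a small accessory subunit of complex I, has a processed pseudogene, BC002163, on another chromosome. Over the 319 aligned bases of its 321-base coding sequence the pair differed at 2 positions, T81C and A105G, counted from 1 at the start codon with the Ndufs5 base first. The capitals below mark those positions in the first 150 coding bases (GRCm38, chr4:123715930-123716079, minus strand, for Ndufs5 and chr16:42955631-42955780, plus strand, for the copy).
Ndufs5: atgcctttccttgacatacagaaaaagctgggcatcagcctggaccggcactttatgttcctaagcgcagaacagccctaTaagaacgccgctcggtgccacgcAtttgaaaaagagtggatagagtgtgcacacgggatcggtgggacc
BC002163: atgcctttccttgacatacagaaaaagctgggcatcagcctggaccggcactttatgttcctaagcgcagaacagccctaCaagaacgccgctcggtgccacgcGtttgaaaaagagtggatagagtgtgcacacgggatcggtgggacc

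Cox7a2l, described as a factor that joins complexes III and IV into larger assemblies, has the processed pseudogene Gm6969 on chromosome 12. The activity of its protein in these mice was not measured here. The pair shared 99.4% of 336 aligned coding bases, with differences T214A and C303T, with 6 further bases in gaps of the alignment, and the first 150 coding bases are the same in both (chr12:24638861-24639010, minus strand, for Gm6969; the Cox7a2l stretch is spliced from chromosome 17).
Cox7a2l: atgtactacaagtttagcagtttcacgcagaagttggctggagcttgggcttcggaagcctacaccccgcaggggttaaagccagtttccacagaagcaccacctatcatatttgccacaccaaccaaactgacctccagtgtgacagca

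The second kind is a nuclear copy of part of mitochondrial DNA on chromosome 1 (GRCm38, chr1:24611535-24616197), annotated as a row of unprocessed pseudogenes. mt-Co2, the complex IV subunit that takes electrons from cytochrome c, matches Gm28661 at all 681 aligned bases. mt-Co1, the catalytic subunit of complex IV, matches Gm29216 over its last 483 bases with 1 difference, A1066T, in capitals below (chrM:6390-6479, plus strand, and chr1:24616099-24616188, minus strand).
mt-Co2: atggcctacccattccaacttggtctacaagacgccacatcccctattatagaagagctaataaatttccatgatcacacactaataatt
mt-Co1: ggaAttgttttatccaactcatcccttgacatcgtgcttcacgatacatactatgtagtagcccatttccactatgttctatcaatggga
Gm29216: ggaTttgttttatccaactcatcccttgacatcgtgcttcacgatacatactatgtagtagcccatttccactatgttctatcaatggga
A read that fits both places equally well can be given to either, split or dropped, and how the authors' counting treated such reads is not given in the sources used here.

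The 85 nuclear genes together were on average lowest in Smad3fl/fl macrophages. Their summed level in untreated libraries was 4350, 5422 and 4787 CPM in Smad2fl/fl, 4363, 4036 and 5040 in MyS2KO, 2676, 2464 and 3830 in Smad3fl/fl and 3310, 4019 and 3957 in MyS3KO. With TGF-b1 the sums were 4240, 3922 and 3823 CPM in Smad2fl/fl, 3705, 3719 and 4839 in MyS2KO, 2538, 2454 and 2785 in Smad3fl/fl and 4049, 3480 and 3904 in MyS3KO. Every Smad3fl/fl library lay below every Smad2fl/fl library of the same treatment, at 0.616 times their level untreated and 0.649 times with TGF-b1. MyS3KO lay above Smad3fl/fl by 1.26 times untreated, where the highest Smad3fl/fl library (number 3, at 3830 CPM) overlapped MyS3KO, and by 1.47 times with TGF-b1, where the groups did not overlap. In bulk RNA, less RNA per cell and fewer cells that hold it cannot be told apart.

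The 13 mitochondrial genes followed another order. Their untreated sums were 10619, 9054 and 9016 CPM in Smad2fl/fl, 7314, 8881 and 6551 in MyS2KO, 5519, 5797 and 6629 in Smad3fl/fl and 8510, 8863 and 7653 in MyS3KO. With TGF-b1 they were 6732, 7321 and 7880 CPM in Smad2fl/fl, 6915, 6649 and 6392 in MyS2KO, 6324, 7207 and 7281 in Smad3fl/fl and 6612, 6871 and 7265 in MyS3KO. Without treatment Smad3fl/fl lay below Smad2fl/fl (0.626 times) and below MyS3KO with no overlap, MyS3KO being 1.39 times as high. With TGF-b1 the genotypes lay close together: Smad3fl/fl and Smad2fl/fl overlapped, and MyS3KO was 0.997 times Smad3fl/fl. mt-Co1 alone made up most of this sum, with group means from 3883 ± 642 CPM in untreated Smad3fl/fl to 6729 ± 402 in untreated Smad2fl/fl (SD, n = 3). The nuclear genes took 0.252 to 0.483% of all counted reads and the mitochondrial genes 0.591 to 1.07%, in RNA that had been selected by its poly(A) tail.

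**Figure D1:**
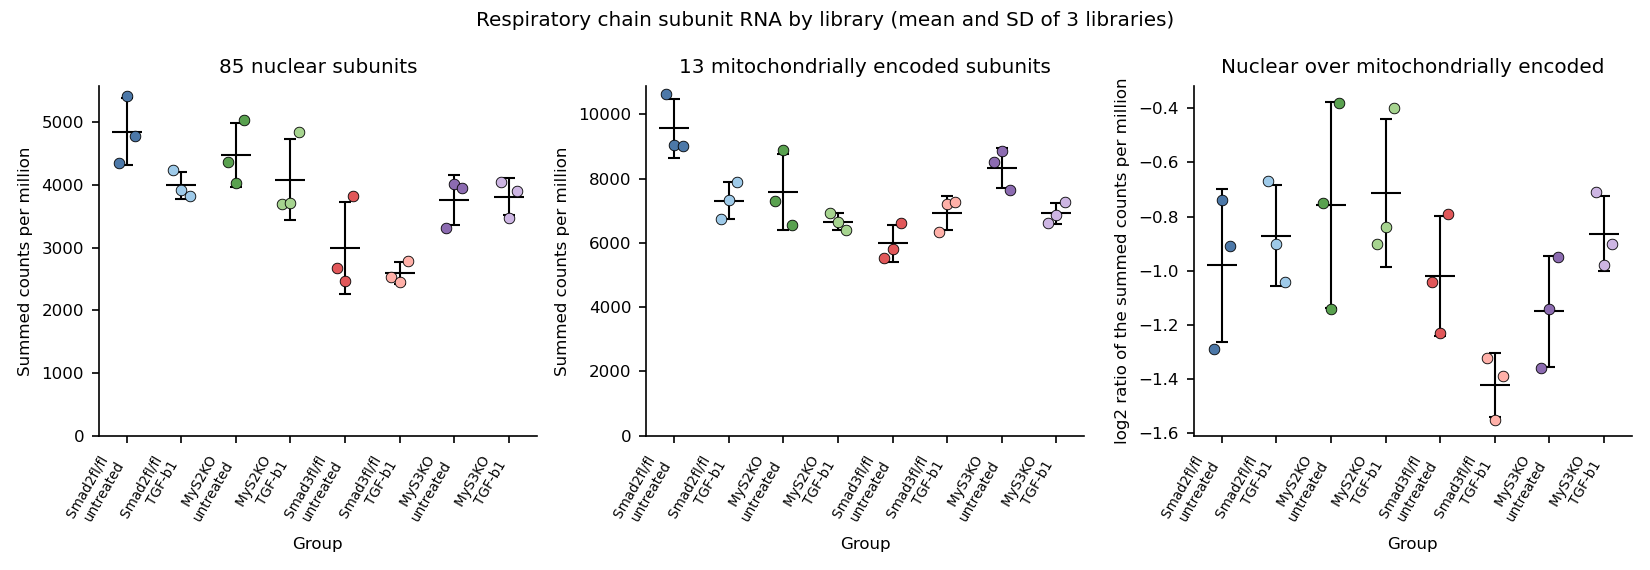
Summed level of the 85 nuclear genes and of the 13 mitochondrial genes (CPM) and the log2 ratio of the sums, for the 8 groups. Points are single libraries and bars are the mean ± SD of 3 libraries. The mean nuclear sums of Smad3fl/fl are the lowest in both treatments, whereas the mitochondrial sums of the 4 genotypes lie between 6324 and 7880 CPM with TGF-b1.

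Between the floxed lines the libraries did not overlap in the balance of nuclear to mitochondrial RNA with TGF-b1, and overlapped without it. The log2 ratio of the nuclear to the mitochondrial sum was -1.29, -0.74 and -0.91 in untreated Smad2fl/fl libraries and -1.04, -1.23 and -0.79 in untreated Smad3fl/fl libraries, which overlap. With TGF-b1 it was -0.67, -0.90 and -1.04 in Smad2fl/fl and -1.32, -1.55 and -1.39 in Smad3fl/fl, which do not overlap, a difference of -0.55. MyS3KO with TGF-b1 was at -0.71, -0.98 and -0.90, above Smad3fl/fl by 0.56 with no overlap. The libraries labelled MyS2KO lay at -0.75, -1.14 and -0.38 untreated and -0.90, -0.84 and -0.40 with TGF-b1, within reach of Smad2fl/fl. Within Smad3fl/fl, TGF-b1 moved the ratio by -0.40, from a mean of -1.02 ± 0.22 to -1.42 ± 0.12 (SD, n = 3), with no overlap. Taking the median gene of each genome in place of the sums reduced the TGF-b1 differences to -0.24 between the floxed lines and 0.17 between MyS3KO and Smad3fl/fl, and leaving mt-Co1 out raised them to -0.72 and 0.75. In these libraries the median mitochondrial gene was mt-Nd6, so the reduced values rest on that gene and do not describe the mitochondrial genes as a set. With TGF-b1 mt-Nd6 was at 175, 146 and 186 CPM in Smad2fl/fl, 123, 144 and 147 in Smad3fl/fl and 163, 178 and 166 in MyS3KO. Between the untreated floxed lines the difference was -0.04 from the sums and -0.30 without mt-Co1. Whether the difference between the floxed lines changed with treatment was not tested.

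The nuclear sums of all 5 complexes were lower in Smad3fl/fl. Untreated Smad3fl/fl sums lay below Smad2fl/fl by a log2 difference of -0.52 for complex I, -0.68 for complex II, -0.74 for complex III, -0.85 for complex IV and -0.71 for complex V, with no overlap between libraries for any of them. With TGF-b1 the differences were -0.47, -0.57, -0.65, -0.74 and -0.67 in the same order, again without overlap. MyS3KO lay above Smad3fl/fl with TGF-b1 by 0.46, 0.36, 0.63, 0.64 and 0.62 for complexes I to V with no overlap, and untreated by 0.23, 0.20, 0.36, 0.42 and 0.38, where the libraries overlapped. In mean level, complex IV was at 1215 CPM in untreated Smad2fl/fl, 673 in Smad3fl/fl and 900 in MyS3KO. These sums and the nuclear sums above leave out reads counted to pseudogene copies. Gm6969, the copy of Cox7a2l, was at 0.557, 0.583 and 0.363 CPM in untreated Smad2fl/fl, 21.8, 17.4 and 41.4 in Smad3fl/fl and 72.9, 98.2 and 98.9 in MyS3KO.

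**Figure D2:**
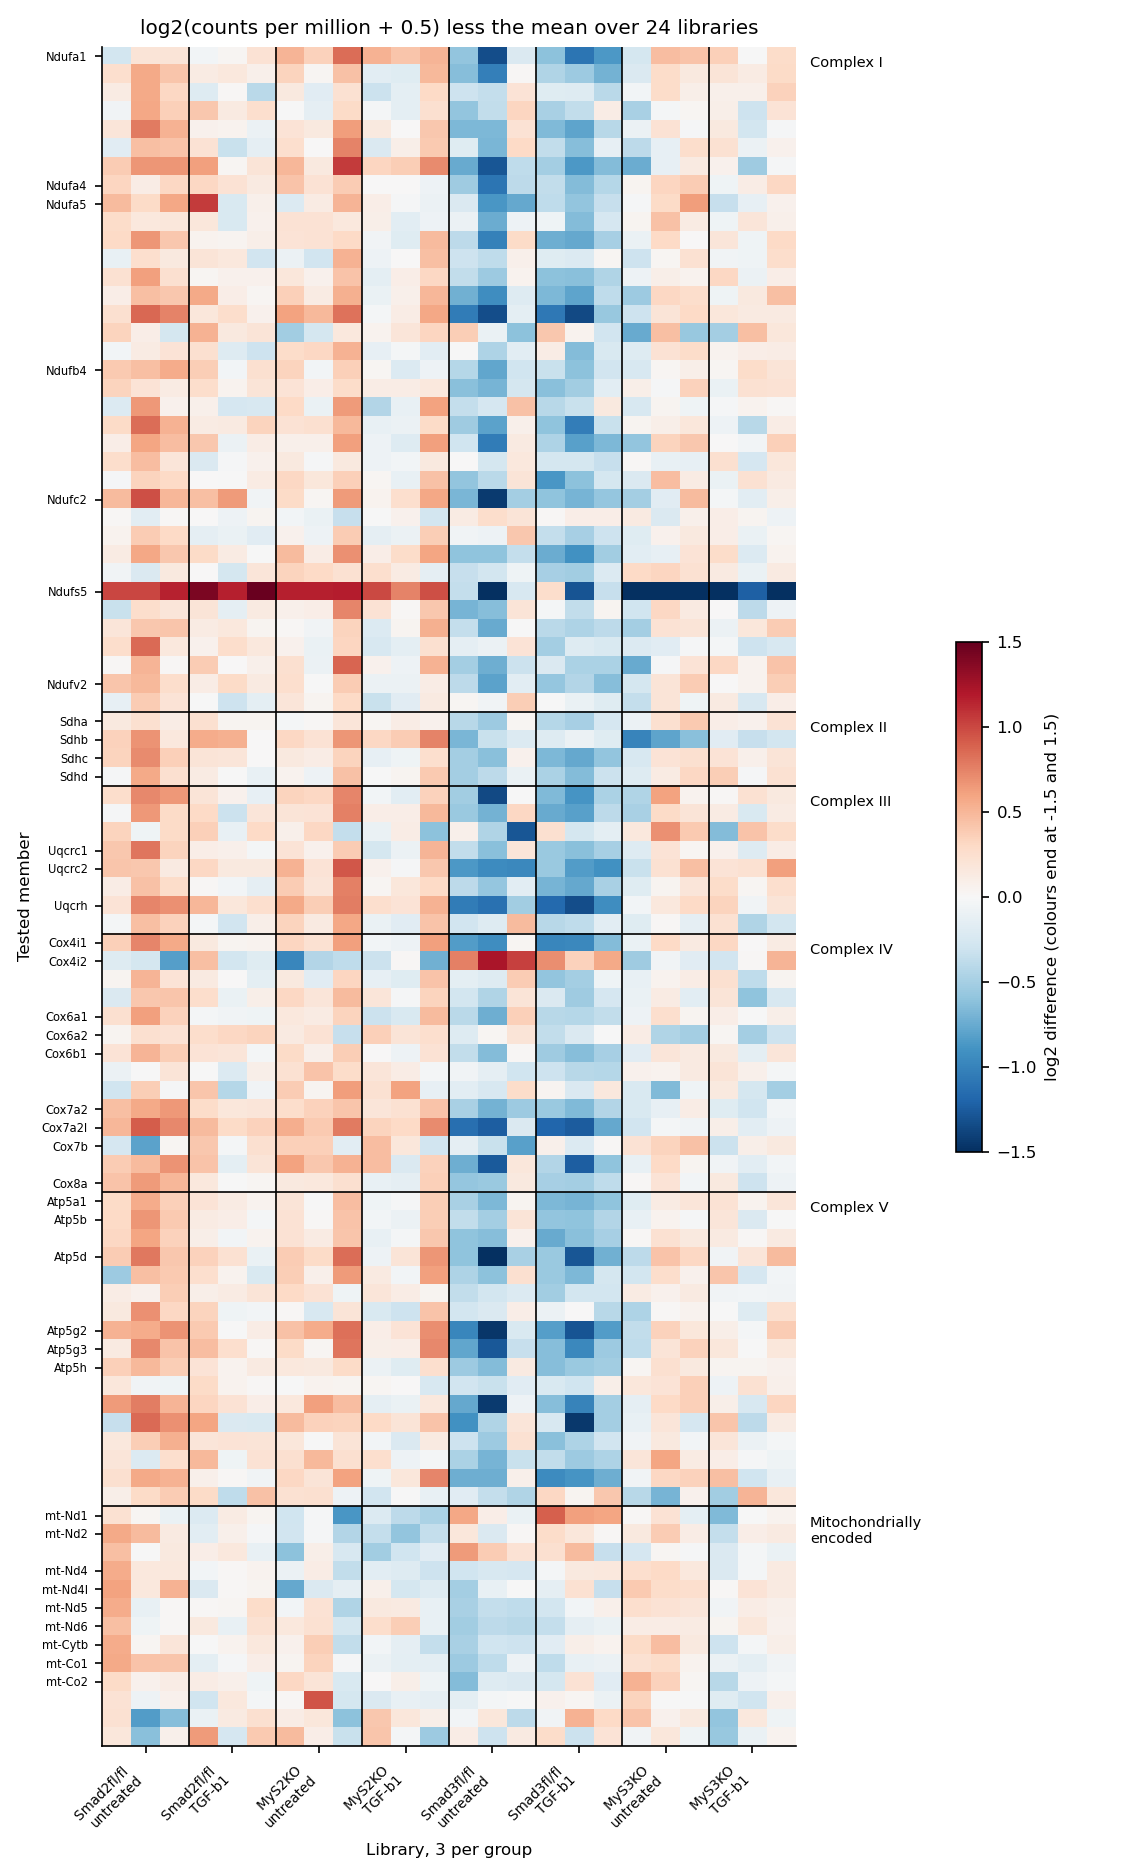
Level of each of the 92 tested subunit genes (rows, grouped by complex) in each of the 24 libraries (columns, grouped by genotype and treatment), as log2(CPM + 0.5) less the gene's mean over the 24 libraries, with names at rows of the main genes described and the colours ending at -1.5 and 1.5. Most nuclear rows are low in the Smad3fl/fl columns, with untreated library 3 closer to the other genotypes.

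Gene by gene, the 2 floxed control lines differed at most subunits. In untreated cells 51 nuclear genes were lower and 1 higher in Smad3fl/fl than in Smad2fl/fl, beside 15.6% of all tested genes lower and 17.7% higher, and 8 mitochondrial genes were lower. With TGF-b1 50 nuclear genes were lower, beside 13.3% of all tested genes lower and 12% higher, and 1 mitochondrial gene was higher. The median log2 difference of the nuclear genes was -0.69 untreated and -0.62 with TGF-b1, beside 0.07 and 0.01 over all tested genes, and that of the mitochondrial genes was -0.52 and -0.02. Of the untreated nuclear calls 23 lower ones belonged to complex I, 4 to complex II, 5 to complex III, 7 to complex IV and 12 to complex V. Both lines carry floxed alleles and no Cre per the labels, so line, litter and allele cannot be told apart in this contrast. Fitting only the groups compared gave 35 untreated calls among members in place of 60. With TGF-b1, leaving out Smad2fl/fl library 1 gave 31 and leaving out Smad3fl/fl library 2 gave 28 in place of 51. Here and below, the share of all tested genes under such other settings is not given unless stated. These moves are therefore not read as particular to the subunits.

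MyS3KO macrophages had higher levels of many nuclear subunits than their floxed controls. Untreated, 25 nuclear and 6 mitochondrial genes were higher and 1 nuclear gene lower, beside 8.37% of all tested genes higher and 9.38% lower. With TGF-b1, 42 nuclear genes were higher and 1 lower, and of the mitochondrial genes 1 was lower, beside 15% of all tested genes higher and 13.2% lower. Median log2 differences of the nuclear genes were 0.40 and 0.56, beside -0.03 and 0.01 over all tested genes, and those of the mitochondrial genes were 0.50 untreated and -0.12 with TGF-b1. The higher nuclear genes with TGF-b1 were 17 of complex I, 3 of complex II, 5 of complex III, 5 of complex IV and 12 of complex V. This contrast shares its Smad3fl/fl libraries with the contrast of the floxed lines, so low values there would move both, in opposite directions. The untreated count moved with single libraries: without Smad3fl/fl library 1, 2 or 3 the 32 calls became 16, 13 or 52, without MyS3KO library 2 or 3 they became 13, and fitting only these groups left 1. With TGF-b1, leaving out Smad3fl/fl library 1 or 2 or MyS3KO library 3 gave 29, 22 or 27 in place of 44.

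**Figure D3:**
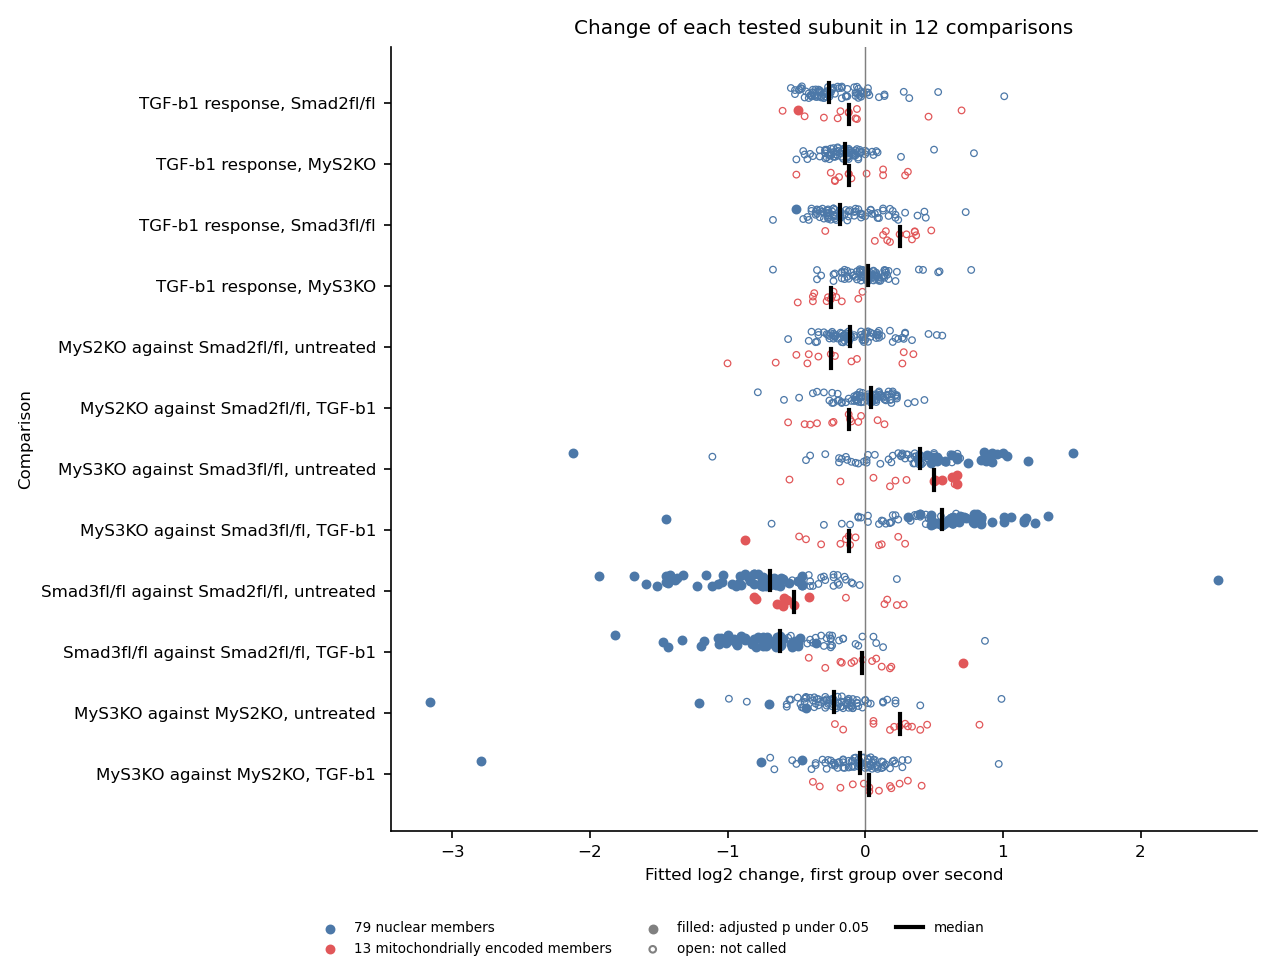
Fitted log2 difference of each tested nuclear and mitochondrial subunit gene in 12 comparisons, filled where the adjusted p was under 0.05, with a black bar at the median. The nuclear medians sit at -0.69 and -0.62 between the floxed lines and at 0.40 and 0.56 between MyS3KO and Smad3fl/fl, and near 0 between MyS2KO and Smad2fl/fl.

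Complex III passes electrons from ubiquinol to cytochrome c. Uqcrh, the hinge protein that helps cytochrome c dock (ENSMUSG00000063882, chr4:116066965-116075071), was at 54.6, 78.5 and 76.1 CPM in untreated Smad2fl/fl libraries, 22.6, 21.4 and 32.7 in Smad3fl/fl and 45.8, 52.5 and 58 in MyS3KO. With TGF-b1 it was at 66.6, 53.1 and 56.3 in Smad2fl/fl, 20.7, 18.4 and 24.4 in Smad3fl/fl and 59.7, 45.5 and 54 in MyS3KO. All 6 Smad3fl/fl libraries lay below every library of the other genotypes, the libraries labelled MyS2KO reading 54.4 to 80.8. The difference between the floxed lines was -1.45 ± 0.18 (log2, SE; adjusted p = 6.36e-06) untreated, or 0.367 times, and -1.47 ± 0.18 (adjusted p = 8.48e-06) with TGF-b1. MyS3KO was 2.04 times Smad3fl/fl untreated (1.03 ± 0.18, adjusted p = 0.000494) and 2.51 times with TGF-b1 (1.33 ± 0.18, adjusted p = 4.82e-05). Both knockout calls held without any single library of the groups compared, as did those between the floxed lines.

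Uqcrc2, a core protein of complex III (ENSMUSG00000030884, chr7:120635176-120659524), was at 9.51, 9.43 and 7.73 CPM in untreated Smad2fl/fl, 3.63, 3.38 and 3.34 in Smad3fl/fl and 5.43, 8.29 and 9.69 in MyS3KO. With TGF-b1 Smad3fl/fl read 4.58, 3.7 and 3.47 and MyS3KO 8.15, 8.28 and 11. The Smad3fl/fl libraries again lay below all others. MyS3KO was higher by 1.18 ± 0.22 (log2, SE; adjusted p = 0.00107) untreated and by 1.23 ± 0.22 (adjusted p = 0.000623) with TGF-b1. Its locus overlaps Pdzd9, a gene annotated at the same place, with 23.8% of its 75-base windows in common and none shared with a gene elsewhere, and reads there cannot be assigned without the counting's strand setting. Uqcrc1, the other core protein and the complex III gene with the highest level per length (122 FPKM on average), was lower in Smad3fl/fl, with a log2 difference of -0.76 ± 0.19 (adjusted p = 0.00519) untreated and -0.61 (adjusted p = 0.0248) with TGF-b1, and MyS3KO was higher with TGF-b1 by 0.56 (adjusted p = 0.036). In untreated cells its groups overlapped, at 84.7, 71 and 124 CPM in Smad3fl/fl and 95.5, 126 and 112 in MyS3KO (0.26, adjusted p = 0.389). The TGF-b1 knockout call for Uqcrc1 was lost without any library but MyS3KO library 2, with adjusted p from 0.0635 to 0.118, and that between the floxed lines with TGF-b1 without Smad2fl/fl library 1 or 2 or Smad3fl/fl library 1 or 2 (0.0526 to 0.0849).

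In complex V the ring of c subunits, which turns as protons pass, is coded by 3 genes with the same mature protein. Atp5g2 (ENSMUSG00000062683, chr15:102662864-102672352) was at 29.5, 30.2 and 32.8 CPM in untreated Smad2fl/fl, 10.1, 7.12 and 17.4 in Smad3fl/fl and 15.7, 26.2 and 23 in MyS3KO, so that Smad3fl/fl library 3 overlapped MyS3KO. With TGF-b1 it read 27, 20.3 and 22.1, then 11.3, 8.05 and 11.2, then 21.8, 20 and 26.8 in the same order, with Smad3fl/fl below both. Its difference between the floxed lines was -1.42 ± 0.25 (log2, SE; adjusted p = 0.000273) untreated and -1.19 (adjusted p = 0.00198) with TGF-b1, and MyS3KO was higher by 0.91 (adjusted p = 0.0151) and 1.17 (adjusted p = 0.0024). Atp5g3 was lower in Smad3fl/fl, with a log2 difference of -1.22 (adjusted p = 0.000957) and -0.98 (adjusted p = 0.00658), and higher in MyS3KO by 0.86 (adjusted p = 0.0198) and 0.84 (adjusted p = 0.0163). The untreated knockout calls of both genes were lost without Smad3fl/fl library 1 or 2 or MyS3KO library 2 or 3 (adjusted p 0.0568 to 0.122), and that of Atp5g3 with TGF-b1 without Smad3fl/fl library 2 (0.0851). Atp5g1, at 11.9 to 26.8 CPM, passed none of these tests.

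Atp5d, the delta subunit of the ATP synthase stalk, was lower in Smad3fl/fl, with a log2 difference of -1.38 ± 0.28 (log2, SE; adjusted p = 0.000852) and -1.01 (adjusted p = 0.0115), its untreated libraries reading 17.8, 8.6 and 19.3 CPM against 35.6, 47.5 and 36.2 in Smad2fl/fl. In MyS3KO it read 20.7, 36.7 and 34, above every Smad3fl/fl library, and the difference was 1.00 (adjusted p = 0.0155), a call lost without Smad3fl/fl library 2 (adjusted p = 0.0965) or MyS3KO library 2 (0.0798) or 3 (0.0647). The TGF-b1 call of Atp5d between the floxed lines was lost without Smad3fl/fl library 2 (adjusted p = 0.0735). Atp5b, the catalytic beta subunit and the complex V gene highest per length (381 FPKM), was at 405, 518 and 430 CPM in untreated Smad2fl/fl, 254, 230 and 374 in Smad3fl/fl and 303, 341 and 324 in MyS3KO. Smad3fl/fl library 3 was the highest of the last 6. Atp5b was lower in Smad3fl/fl, with a log2 difference of -0.66 ± 0.17 (adjusted p = 0.00496) and -0.61 (adjusted p = 0.0109), and higher in MyS3KO with TGF-b1 by 0.54 (adjusted p = 0.0207) but not untreated (0.17, adjusted p = 0.507). The TGF-b1 knockout call for Atp5b was lost without Smad3fl/fl library 1 (adjusted p = 0.0568) or 2 (0.0797) or MyS3KO library 1 (0.0805) or 3 (0.0537).

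Complex IV takes the electrons to oxygen, and several of its nuclear subunits exist as tissue forms. Cox4i1, the common form of subunit 4 and the complex IV gene of the nucleus with the highest level per length (412 FPKM), was at 305, 398 and 353 CPM in untreated Smad2fl/fl, 133, 125 and 244 in Smad3fl/fl and 223, 293 and 262 in MyS3KO. With TGF-b1 Smad3fl/fl read 121, 122 and 152 and MyS3KO 296, 239 and 261, and these did not overlap, whereas untreated Smad3fl/fl library 3 lay inside the MyS3KO range. The floxed lines differed by -1.07 ± 0.22 (log2, SE; adjusted p = 0.00083) and -0.95 (adjusted p = 0.00319). MyS3KO was higher by 0.63 ± 0.21 (adjusted p = 0.0442) untreated, a call lost without Smad3fl/fl library 1 (adjusted p = 0.19) or 2 (0.219) or MyS3KO library 2 (0.163) or 3 (0.108), and by 1.01 (adjusted p = 0.00209) with TGF-b1, which held. Part of the Cox4i1 transcript, 11.6% of its windows, is shared with Emc8 at the same place, and none with a gene elsewhere.

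Cox4i2, the form of subunit 4 known from lung and low oxygen, went the other way at a far lower level. It was at 0.358, 0.318 and 0.0519 CPM in untreated Smad2fl/fl, 1.16, 1.8 and 1.5 in Smad3fl/fl and 0.179, 0.444 and 0.374 in MyS3KO, and 0 to 0.252 in MyS2KO. Every untreated Smad3fl/fl library lay above all others. The difference from Smad2fl/fl was 2.56 ± 0.65 (log2, SE; adjusted p = 0.00483), and MyS3KO was lower, with a log2 difference of -2.12 ± 0.63 (adjusted p = 0.0223), a call lost without Smad3fl/fl library 2 (adjusted p = 0.0817) or any 1 of the MyS3KO libraries (0.0541 to 0.0728). Over all 24 libraries the gene collected 290 reads.

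Among the other tissue forms, Cox7a2 was at 29.8, 32.4 and 34.4 CPM in untreated Smad2fl/fl, 15.4, 13.1 and 14.7 in Smad3fl/fl and 18.5, 19.8 and 23.4 in MyS3KO. These 3 groups did not overlap. The floxed lines differed by -1.16 ± 0.13 (log2, SE; adjusted p = 9.87e-07) untreated and -0.78 (adjusted p = 0.000152) with TGF-b1, and MyS3KO was higher by 0.52 (adjusted p = 0.00663) and 0.40 (adjusted p = 0.0231). The knockout calls of Cox7a2 were lost untreated without MyS3KO library 3 (adjusted p = 0.0539) and with TGF-b1 without Smad3fl/fl library 1 or 2 or MyS3KO library 3 (0.0539 to 0.11). Its muscle counterpart Cox7a1 was at 0.444 to 1.81 CPM and passed no test. Cox8a was lower in Smad3fl/fl, with a log2 difference of -0.81 (adjusted p = 0.00111) and -0.53 (adjusted p = 0.0247), while the forms Cox8b and Cox8c had at most 5 reads in any library. Cox6a1 was lower in untreated Smad3fl/fl (-0.60, adjusted p = 0.0321), and Cox6a2, the heart and muscle form at 8.33 to 15.6 CPM, was lower with TGF-b1 (-0.52, adjusted p = 0.0472). Cox6b1 was lower in both treatments (-0.68, adjusted p = 0.00213, and -0.69, adjusted p = 0.00278), and MyS3KO was higher with TGF-b1 (0.64, adjusted p = 0.00517). Cox7b was higher in untreated MyS3KO, at 23.5, 25.6 and 27.6 CPM against 18.3, 15.9 and 11.3 in Smad3fl/fl (0.75, adjusted p = 0.0236). Single libraries decided several of these calls. With TGF-b1, Cox8a was lost without Smad2fl/fl library 1 or Smad3fl/fl library 1 or 2 (adjusted p 0.059 to 0.0822) and Cox6a2 without any library but Smad3fl/fl library 3 (0.08 to 0.132). Untreated, Cox6a1 was lost without Smad2fl/fl library 2 or 3 or Smad3fl/fl library 1 or 2 (0.0538 to 0.189), and Cox7b without Smad3fl/fl library 2 or 3 or MyS3KO library 2 or 3 (0.0601 to 0.0845). The testis forms Cox6b2 and Cox7b2 and the low-oxygen form Ndufa4l2 had at most 5 reads in any library and were not tested, nor was a second annotated Atp5o, which had 0 reads.

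Complex II, which also works in the citric acid cycle, has 4 subunits and all 4 were lower in Smad3fl/fl than in Smad2fl/fl in both treatments. Sdha, the flavoprotein (191 FPKM, the highest per length), was at 162, 173 and 158 CPM in untreated Smad2fl/fl, 109, 99.7 and 149 in Smad3fl/fl and 137, 172 and 191 in MyS3KO. Smad3fl/fl lay below Smad2fl/fl, and its library 3 overlapped MyS3KO. Its floxed-line differences were -0.46 ± 0.14 (log2, SE; adjusted p = 0.0143) and -0.51 (adjusted p = 0.0104), and its knockout differences 0.48 (adjusted p = 0.0182) and 0.52 (adjusted p = 0.0087). None of these 4 Sdha calls held against leaving out each library: without Smad3fl/fl library 2 of the treatment concerned the adjusted p was 0.0912, 0.0541, 0.12 and 0.0523 in that order. The untreated Sdha calls were also lost without Smad2fl/fl library 2 or Smad3fl/fl library 1 between the floxed lines (0.0562 and 0.0607) and without Smad3fl/fl library 1 or MyS3KO library 2 or 3 for the knockout (0.064 to 0.118), and the TGF-b1 call between the floxed lines without Smad2fl/fl library 1 (0.0521). Sdhb, the iron-sulfur subunit, did not follow the other 3. It was at 216, 271 and 189 CPM in untreated Smad2fl/fl, 211, 197 and 269 in MyS2KO, 105, 134 and 147 in Smad3fl/fl and 85.1, 97.9 and 110 in MyS3KO, so that both genotypes of the Smad3 line lay below both of the Smad2 line. Against MyS2KO, MyS3KO was lower, with a log2 difference of -1.21 ± 0.17 (adjusted p = 0.000118) untreated and -0.76 (adjusted p = 0.00819) with TGF-b1, the latter lost without MyS2KO library 3 (adjusted p = 0.0534). Sdhc and Sdhd, the membrane anchors, were higher in MyS3KO with TGF-b1 by 0.84 (adjusted p = 0.00117) and 0.68 (adjusted p = 0.00807), and the untreated differences were 0.41 (adjusted p = 0.0868) and 0.42 (adjusted p = 0.103). Between the floxed lines the Sdhd call was lost untreated without Smad2fl/fl library 2 or Smad3fl/fl library 1 (0.0938 and 0.0551), and with TGF-b1 the Sdhd and Sdhb calls were lost without any of 5 libraries each, the exceptions being Smad3fl/fl library 3 for Sdhd (0.0528 to 0.168) and Smad2fl/fl library 3 for Sdhb (0.0529 to 0.0982).

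Complex I is the entry point for electrons from NADH, and its nuclear members differed among themselves. Ndufa1, an accessory subunit needed for assembly and coded on the X chromosome, was at 6.05, 8.58 and 8.56 CPM in untreated Smad2fl/fl, 4.79, 2.66 and 6.34 in Smad3fl/fl and 6.14, 10.5 and 10.2 in MyS3KO. With TGF-b1 Smad3fl/fl read 4.71, 3.21 and 3.86 and MyS3KO 9.69, 7.44 and 9.12, without overlap. MyS3KO was higher by 0.96 ± 0.26 (log2, SE; adjusted p = 0.0122) untreated and 1.15 (adjusted p = 0.00311) with TGF-b1, the former lost without Smad3fl/fl library 2 or MyS3KO library 2 or 3 (adjusted p 0.0615 to 0.079). Ndufa4 was at 16.4, 11 and 18.2 CPM in untreated Smad3fl/fl, below every untreated library of the other genotypes, and at 24.7 to 31.4 in untreated MyS3KO. Its floxed-line differences were -0.92 ± 0.16 (adjusted p = 0.000185) and -0.72 (adjusted p = 0.00231), and its knockout differences 0.92 (adjusted p = 0.000431) and 0.62 (adjusted p = 0.00689), the last lost without Smad3fl/fl library 2 (0.0513).

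Ndufc2, a membrane-arm subunit, was, in untreated cells, at 11.7, 16.6 and 11.9 CPM in Smad2fl/fl and 4.95, 2.75 and 5.68 in Smad3fl/fl (-1.59 ± 0.28, adjusted p = 0.000207). Ndufa5 was low everywhere, at 1.47, 1.22 and 1.61 CPM in untreated Smad2fl/fl, 0.718, 0.27 and 0.329 in Smad3fl/fl and 0.894, 1.23 and 1.68 in MyS3KO. Smad3fl/fl lay below both, with differences of -1.68 ± 0.46 (log2, SE; adjusted p = 0.008) between the floxed lines and 1.51 ± 0.46 (adjusted p = 0.0258) for the knockout. The latter was lost without Smad3fl/fl library 2 (adjusted p = 0.123) or 3 (0.0601) or MyS3KO library 2 (0.0584) or 3 (0.124). With TGF-b1 the floxed lines differed at Ndufa5 by -1.33 ± 0.45 (adjusted p = 0.0356), a call lost without Smad2fl/fl library 1 (adjusted p = 0.346) or any 1 Smad3fl/fl library (0.0593 to 0.127). Ndufs1 and Ndufs6 passed in none of the 4 comparisons between the floxed lines or between MyS3KO and Smad3fl/fl.

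The mitochondrial genes were tested one by one as well. mt-Co1 (chrM:5328-6872), at 3182 FPKM on average the highest of all members per length, was at 7191, 6531 and 6464 CPM in untreated Smad2fl/fl, 3337, 3721 and 4591 in Smad3fl/fl and 5708, 5864 and 5045 in MyS3KO, with no overlap between these groups. With TGF-b1 the same groups read 4377, 4812 and 5208, then 3715, 4479 and 4566, then 4585, 4386 and 4689, and overlapped. Untreated, Smad3fl/fl was lower, with a log2 difference of -0.79 ± 0.14 (log2, SE; adjusted p = 0.000218) and MyS3KO higher than Smad3fl/fl by 0.51 ± 0.14 (adjusted p = 0.0129), a call lost without Smad3fl/fl library 1 or 2 or MyS3KO library 2 (0.0584 to 0.0728). With TGF-b1 these differences were -0.17 (adjusted p = 0.371) and 0.10 (adjusted p = 0.618).

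mt-Cytb, the cytochrome b of complex III, was at 972, 671 and 744 CPM in untreated Smad2fl/fl, 468, 534 and 530 in Smad3fl/fl and 805, 906 and 726 in MyS3KO, so Smad3fl/fl lay below both. The differences were -0.64 (adjusted p = 0.0065) and 0.67 (adjusted p = 0.00867). Lower in untreated Smad3fl/fl than in Smad2fl/fl were also mt-Nd4 (-0.57, adjusted p = 0.00241), mt-Nd6 (-0.60, adjusted p = 0.00494), mt-Nd5 (-0.59, adjusted p = 0.00901), mt-Nd4l (-0.81, adjusted p = 0.0328), mt-Co2 (-0.52, adjusted p = 0.0343) and mt-Nd2 (-0.41, adjusted p = 0.0431). Higher in untreated MyS3KO than in Smad3fl/fl were also mt-Nd4 (0.50, adjusted p = 0.0106), mt-Nd5 (0.63, adjusted p = 0.0112), mt-Nd6 (0.56, adjusted p = 0.0133) and mt-Co2 (0.67, adjusted p = 0.0142). The mt-Nd genes code core subunits of complex I. Between the floxed lines, leaving out 1 library ended the calls of mt-Nd5 (Smad2fl/fl library 1, adjusted p = 0.0554), mt-Co2 (any Smad2fl/fl library or Smad3fl/fl library 1, 0.0515 to 0.154), mt-Nd2 (Smad2fl/fl library 1 or 2 or Smad3fl/fl library 2 or 3, 0.056 to 0.182) and mt-Nd4l (Smad2fl/fl library 1 or 3 or Smad3fl/fl library 1 or 2, 0.0652 to 0.14). For the knockout it ended those of mt-Cytb (MyS3KO library 2, 0.0506), mt-Nd6 (Smad3fl/fl library 1, 0.0576) and mt-Co2 (Smad3fl/fl or MyS3KO library 1, 0.0868 and 0.0512). With TGF-b1 none of these passed in either comparison.

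mt-Nd1 was called with TGF-b1. It was at 359, 451 and 425 CPM in treated Smad2fl/fl, 768, 633 and 621 in treated Smad3fl/fl and 262, 413 and 428 in treated MyS3KO, so that all 3 Smad3fl/fl libraries stood above the rest. It was higher in Smad3fl/fl than in Smad2fl/fl by 0.71 ± 0.21 (log2, SE; adjusted p = 0.0161) and lower in MyS3KO than in Smad3fl/fl, with a log2 difference of -0.87 ± 0.21 (adjusted p = 0.0045). The first call was lost without Smad2fl/fl library 1 (adjusted p = 0.0871) or Smad3fl/fl library 1 (0.0952), and the second held. None of the mt-Nd1 windows is shared with another annotated transcript.

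The mitochondrial genes with an almost complete copy in the nucleus had low counts. mt-Co3, mt-Co2, mt-Atp6, mt-Nd4l and mt-Nd3 had 97.8 to 99.9% of their 75-base windows in the annotated transcript of a gene elsewhere, and they were counted at 10.5 to 25.5, 8.1 to 18.8, 4.35 to 12, 0.788 to 2.83 and 2.06 to 5.59 CPM. mt-Nd1 and mt-Cytb, with 0% shared, were counted at 225 to 768 and 468 to 972 CPM, and mt-Co1, with 39.8% shared, at 3337 to 7191. mt-Atp8 was the exception, with 0% shared and 0.159 to 1.08 CPM. In mitochondrial DNA it follows mt-Co2 and overlaps the start of mt-Atp6 (chrM:7766-7969 for mt-Atp8 and chrM:7927-8607 for mt-Atp6). How reads that touch both genes were counted is not given in the sources used here. The 0% of mt-Atp8 means only that no annotated transcript elsewhere holds its sequence: the annotated copies of mt-Atp6 and mt-Co2 on chromosome 1 end at 24614651 and begin at 24614885, and the bases between them were not analysed here. The part of the shared sequence or of the overlap in these levels was not tested.

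**Figure D4:**
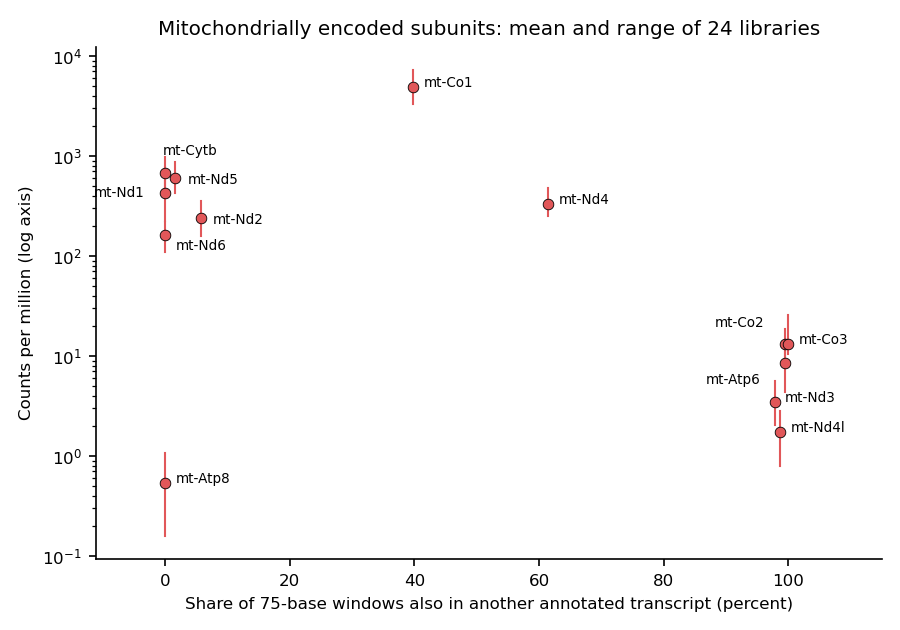
Mean level of each mitochondrial gene over 24 libraries (CPM, log axis; bars span the lowest and highest library) against the percentage of its 75-base windows that occur in the annotated transcript of a gene elsewhere. The 5 genes with 97.8% or more of their windows shared lie between 0.788 and 25.5 CPM, and mt-Atp8, with none shared, lies lower.

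Few subunits passed the test for TGF-b1. In Smad2fl/fl 1 member passed, mt-Co1, which fell by 0.49 ± 0.14 (log2, SE; adjusted p = 0.0221), beside 11.1% of all tested genes called in either direction. That call was lost without untreated library 1 (adjusted p = 0.05) or treated library 1 (0.101), and leaving out untreated library 1, untreated library 3, treated library 1 or treated library 2 gave 3, 2, 0 or 2 called members. Of the 79 nuclear genes 68 had a fitted change below 0, with a median of -0.26 beside 0.01 over all genes, and their summed level was 0.823 times that of untreated libraries without overlap. DESeq2 called 5 members. The share of all tested genes that DESeq2 called is not given, here or below, so its counts are not read as particular to the subunits. In Smad3fl/fl 1 member passed, beside 12% of all tested genes. With the replicate number as a block there were 4 calls, beside 23.2% of all tested genes under the block. Leaving out untreated library 1 or 2 gave 2 called members, and leaving out untreated library 3 or treated library 1 or 2 gave 0. The mitochondrial genes had a median change of 0.25 in Smad3fl/fl, 12 of 13 above 0, and of -0.25 in MyS3KO, 13 of 13 below 0, where none of them was called. Such signs come from genes read in the same libraries and are not separate observations. The shares of all tested genes above or below 0 are not given here.

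In the libraries labelled MyS2KO and in MyS3KO, edgeR called 0 members for TGF-b1, beside 3.41% and 10% of all tested genes. At an unadjusted p under 0.05 there were 3 members in each, beside 11.7% and 21.6% of all tested genes at that threshold, and DESeq2 called 0 and 1. Leaving out untreated MyS3KO library 3 gave 1 call by edgeR. The nuclear medians were -0.15 in MyS2KO and 0.02 in MyS3KO. With the replicate number as a block there were again 0 calls among members in MyS2KO, beside 7.24% of all tested genes under the block.

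Between the libraries labelled MyS2KO and Smad2fl/fl, edgeR called 0 members in untreated cells, beside 0.0701% of all tested genes, and 0 with TGF-b1, beside 0.421%. At an unadjusted p under 0.05 there were 8 members and 1 member of 92, beside 8.79% and 9.21% of all tested genes at that threshold, and DESeq2 called 1 and 0. Median differences of the nuclear genes were -0.11 and 0.04, and of the mitochondrial genes -0.25 and -0.12. The summed mitochondrial level in untreated cells was lower in MyS2KO by 0.33 on the log2 scale, without overlap of libraries in CPM. As a share of all counted reads the log2 difference was -0.31 and the libraries overlapped. Without mt-Co1 the CPM sums also differed by -0.31 and overlapped. Whether the knockout changed the response to TGF-b1 was asked by the interaction, which called 0 members in either line by edgeR and 0 by DESeq2, beside 0.00701% of all tested genes in the Smad2 line and 0.021% in the Smad3 line by edgeR. At an unadjusted p under 0.05 there were 1 and 9 members, beside 3.43% and 6.43% of all tested genes. In the Smad3 line the median interaction was 0.21 for the nuclear and -0.51 for the mitochondrial genes, with 12 of 13 mitochondrial genes below 0. These signs too come from the same libraries and are not separate observations.

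The effects of the knockouts were then set against each other. Untreated, the signed MyS3KO effect lay above the MyS2KO effect at 9 members, 3 nuclear and 6 mitochondrial, beside 2.09% of all tested genes higher in that direction. With TGF-b1 it did so at 8 members, all nuclear, beside 3.83%. Uqcrh passed in both treatments, by 1.01 ± 0.25 (log2, SE; adjusted p = 0.0236) and 1.31 ± 0.25 (adjusted p = 0.00455), and Ndufa4 by 0.83 ± 0.22 (adjusted p = 0.0334) and 0.87 ± 0.22 (adjusted p = 0.0221). Uqcrc2 passed with TGF-b1 (1.27 ± 0.31, adjusted p = 0.0188), and mt-Nd4 passed untreated (0.91 ± 0.19, adjusted p = 0.00742). The Uqcrh call with TGF-b1 and the mt-Nd4 call held without any single library. The untreated Uqcrh call was lost without Smad2fl/fl library 2, MyS2KO library 2, Smad3fl/fl library 1 or 2 or MyS3KO library 2 or 3 (adjusted p 0.0534 to 0.0718), and the Uqcrc2 call without treated Smad2fl/fl library 1, MyS2KO library 1 or 2, Smad3fl/fl library 2 or MyS3KO library 3 (0.0546 to 0.0677). The Ndufa4 calls were lost untreated without Smad2fl/fl library 1 or 3, MyS2KO library 2, Smad3fl/fl library 2 or MyS3KO library 2 or 3 (0.0525 to 0.0953), and with TGF-b1 without Smad2fl/fl or MyS2KO library 1, Smad3fl/fl library 2 or MyS3KO library 3 (0.0577 to 0.0835). Of the untreated libraries, leaving out Smad2fl/fl library 1 or MyS2KO library 1 gave 5 members, Smad3fl/fl library 2 or MyS3KO library 3 gave 4, MyS3KO library 2 gave 3, MyS3KO library 1 gave 18 and Smad3fl/fl library 3 gave 40. Of the treated libraries, leaving out Smad2fl/fl library 1, MyS2KO library 1, Smad3fl/fl library 2 or MyS3KO library 3 gave 1, MyS2KO library 2 gave 2, Smad2fl/fl library 2, Smad3fl/fl library 1 or MyS3KO library 2 gave 5, and MyS2KO library 3 gave 22.

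The 2 genotypes with LyzMCre were also compared directly. In untreated cells 4 nuclear genes were lower in MyS3KO, beside 2.62% of all tested genes lower, and with TGF-b1 3 were, beside 3.06%. These were Ndufs5, Sdhb and Cox7a2 in both treatments and Cox7a2l in untreated cells. Cox7a2 was lower, with a log2 difference of -0.43 (adjusted p = 0.0429) and -0.46 (adjusted p = 0.0249), calls lost untreated without any library but MyS3KO library 3 (adjusted p 0.0869 to 0.182) and with TGF-b1 without MyS2KO library 2 or 3 or MyS3KO library 2 (0.0597 to 0.119). The untreated count became 2 without MyS2KO library 1 or 3 or MyS3KO library 1 or 2, and the TGF-b1 count became 1 without MyS2KO library 3 and 5 without MyS3KO library 1. Nuclear medians were -0.23 and -0.04 and mitochondrial medians 0.25 and 0.03.

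Ndufs5 and Cox7a2l have to be read with their copies. Ndufs5 was at 9.67, 9.7 and 10.8 CPM in untreated Smad2fl/fl, 10.9, 10.9 and 11 in MyS2KO, 3.47, 0.631 and 3.8 in Smad3fl/fl and 1.31, 1.18 and 1.17 in MyS3KO. In the same libraries its copy BC002163 was at no more than 0.265 CPM throughout the Smad2 line, at 1.72, 2.48 and 3.52 in Smad3fl/fl and at 5.9, 8.39 and 7.91 in MyS3KO. The copy thus held 1.08 to 1.87% of the reads of the pair in the groups of the Smad2 line, 48.7 and 52.5% in Smad3fl/fl and 86.1 and 87.7% in MyS3KO, untreated and treated. Summed with its copy, Ndufs5 was at 7.21, 9.57 and 9.08 CPM in untreated MyS3KO and 11, 11.2 and 11.1 in MyS2KO.

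The Ndufs5 difference between MyS3KO and MyS2KO was -3.16 ± 0.43 (log2, SE; adjusted p = 7.04e-05) for the gene alone and -0.36 (adjusted p = 0.362) for the sum in untreated cells, and -2.79 (adjusted p = 0.000232) and 0.22 (adjusted p = 0.617) with TGF-b1. Against Smad3fl/fl with TGF-b1, MyS3KO was lower, with a log2 difference of -1.45 ± 0.43 (adjusted p = 0.0165) for the gene alone and 0.52 ± 0.21 higher (adjusted p = 0.0714) for the sum, so that summing ended the call and turned the direction. The call for the gene alone was also lost without treated Smad3fl/fl library 1 (adjusted p = 0.144) or MyS3KO library 1 (0.0565) or 3 (0.0694). Between the floxed lines the difference was -1.93 ± 0.40 (adjusted p = 0.000972) alone and -0.98 (adjusted p = 0.00171) summed.

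Cox7a2l was at 205, 274 and 240 CPM in untreated Smad2fl/fl, 213, 191 and 250 in MyS2KO, 65.9, 61.5 and 125 in Smad3fl/fl and 119, 142 and 140 in MyS3KO. Its copy Gm6969 was at 0.198 to 0.946 CPM in the Smad2 line, 21.8, 17.4 and 41.4 in untreated Smad3fl/fl and 72.9, 98.2 and 98.9 in untreated MyS3KO. The copy held 24.2% of the reads of the pair in untreated Smad3fl/fl and 40.4% in untreated MyS3KO. Alone, Cox7a2l was lower in untreated MyS3KO than in MyS2KO, with a log2 difference of -0.70 (adjusted p = 0.0443), a call lost without any 1 of the 6 libraries (adjusted p 0.0517 to 0.217), and summed with its copy it differed by 0.03 (adjusted p = 0.952). Its difference between the floxed lines stayed called when summed (-1.51 ± 0.21, adjusted p = 2.04e-05 alone, and -1.11 ± 0.21, adjusted p = 0.000572 summed), as did the knockout difference (0.67, adjusted p = 0.0269, and 1.01 ± 0.21, adjusted p = 0.00245). The knockout call for Cox7a2l alone was lost without Smad3fl/fl library 1 or 2 or MyS3KO library 2 or 3 (0.0868 to 0.162). The pseudogene Gm15920, a copy of the complex I subunit gene Ndufa12, held 0.42 to 0.918% of the pair's reads in the Smad2 line and 8.06 to 9.12% in the Smad3 line, and Ndufa12 itself passed none of these comparisons. All 3 copies had a larger share of the reads of their pair in the groups of the Smad3 line than in those of the Smad2 line.

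**Figure D5:**
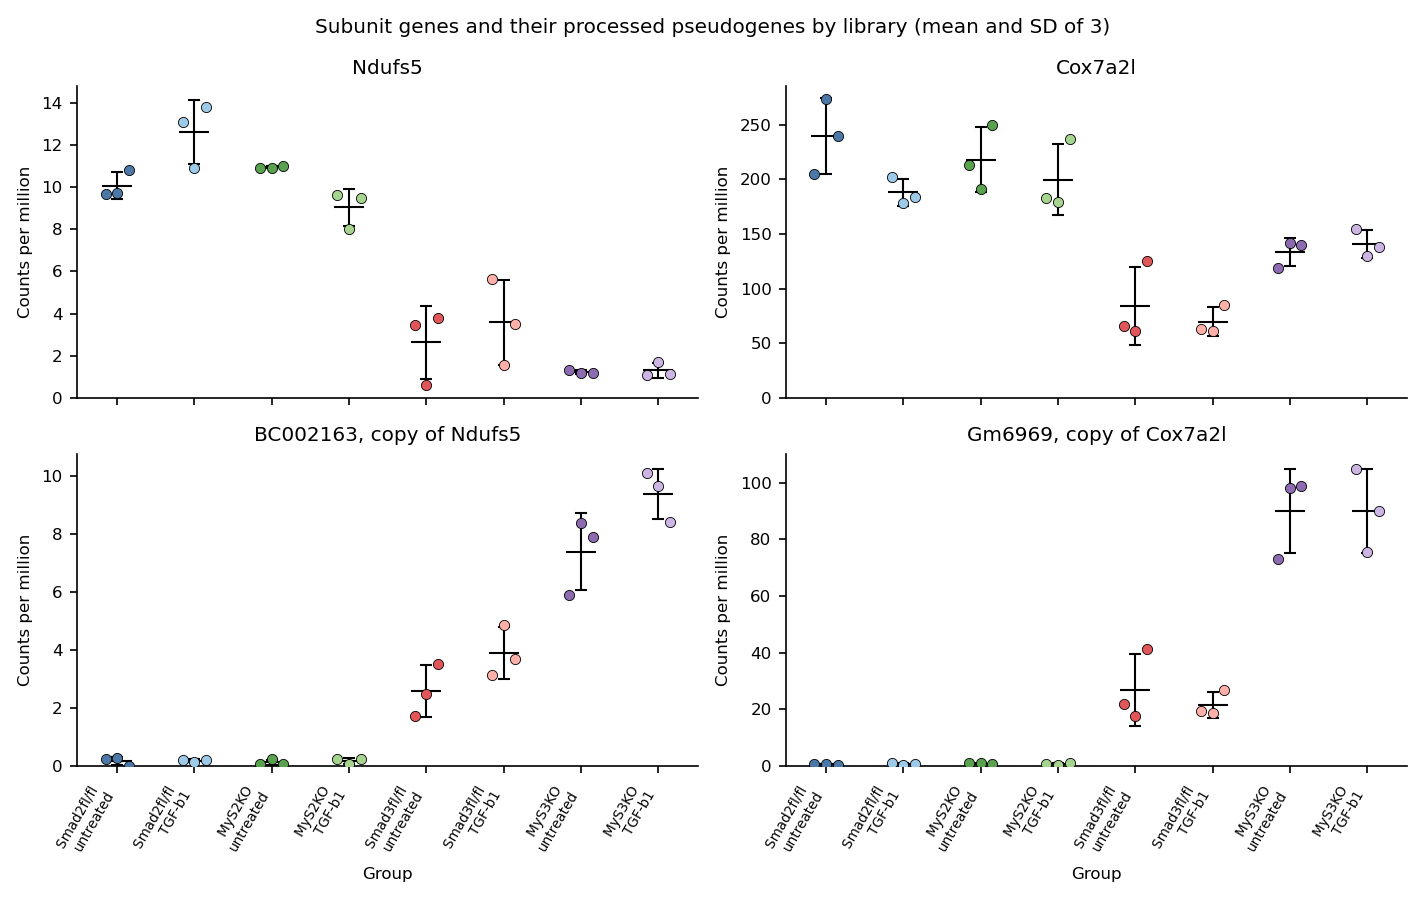
Level (CPM) of Ndufs5 and Cox7a2l and of their processed pseudogenes BC002163 and Gm6969 in each library, with the mean ± SD of each group of 3. BC002163 reads 5.9 to 10.1 CPM in MyS3KO and at most 0.265 CPM in the Smad2 line, where Ndufs5 is high.

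Promoters of the nuclear subunits were searched for short motifs, since the factors NRF1, GABP (an ETS factor) and YY1 are known to bind many of them. RefSeq windows of 300 bases, from 250 before to 50 after the start (GRCm38.p6), were found for 68 of the 85 nuclear genes and searched on both strands. The letters GCGCATGC (NRF1 core) were present for 10 of the 68, or 14.7%, beside 3.05% of 27025 genes with a window. CCGGAAG (ETS core) was present for 16, or 23.5%, beside 9.93%, and AAGATGGC (YY1 core) for 10, or 14.7%, beside 3.19%. At least 1 of these was present for 30 subunit genes, 44.1%, beside 14.9% of all genes. The ETS and YY1 letters can overlap by AAG, the NRF1 letters can overlap their own reverse complement, and a match describes the sequence only. Of the genes with a window, 16 passed in all 4 comparisons between the floxed lines and between MyS3KO and Smad3fl/fl. The share of all tested genes that did so is not given, and these comparisons share their Smad3fl/fl libraries. The count is therefore not read as particular to the subunits. Of the 16 genes, 5 had a motif in the window, 31.2%, and for 3 of these it lay before the start. For these 3 the 150 bases before the start are printed, with the motif in capitals, as the promoters of members described here (chr15:102671048-102671197 for Atp5g2, chr11:115419920-115420069 for Atp5h and chr4:116075071-116075220 for Uqcrh, all minus strand).
Atp5g2: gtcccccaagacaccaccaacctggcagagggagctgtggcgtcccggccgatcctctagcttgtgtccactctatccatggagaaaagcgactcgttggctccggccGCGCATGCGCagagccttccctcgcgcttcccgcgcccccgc
Atp5h: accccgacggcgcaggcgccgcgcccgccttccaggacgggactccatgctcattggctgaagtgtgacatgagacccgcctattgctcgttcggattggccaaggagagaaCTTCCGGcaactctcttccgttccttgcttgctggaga
Uqcrh: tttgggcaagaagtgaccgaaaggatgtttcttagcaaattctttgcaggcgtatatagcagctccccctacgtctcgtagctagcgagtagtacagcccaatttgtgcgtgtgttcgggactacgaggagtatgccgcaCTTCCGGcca
In Atp5g2 the NRF1 core was found on both strands of 1 site, and in Atp5h and Uqcrh the ETS core was on the opposite strand. Atp5h, a stator subunit of complex V, was at 45.3, 42.2 and 73.1 CPM in untreated Smad3fl/fl and 67.6, 78.5 and 73.4 in MyS3KO, so that Smad3fl/fl library 3 overlapped. Its differences were -0.72 (adjusted p = 0.00139) between the floxed lines and 0.45 (adjusted p = 0.0451) for the knockout, in untreated cells, the latter lost without Smad3fl/fl library 1 or 2 or MyS3KO library 2 or 3 (0.113 to 0.245), and 18.9% of its windows are shared with the pseudogene Gm10250.

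Genes that build and feed the chain were counted from lists of each pathway, to be read beside the shares of all tested genes given above, 15.6% lower and 17.7% higher in untreated Smad3fl/fl than in Smad2fl/fl (13.3% and 12% with TGF-b1) and 8.37% higher and 9.38% lower in untreated MyS3KO than in Smad3fl/fl (15% and 13.2%). Of 19 tested citric acid cycle genes, 10 were lower and 0 higher in untreated Smad3fl/fl than in Smad2fl/fl (5 and 0 with TGF-b1), and 4 were higher and 0 lower in untreated MyS3KO than in Smad3fl/fl (7 and 0 with TGF-b1). Their medians were -0.41, -0.29, 0.25 and 0.45 in that order. Cs, citrate synthase, was lower, with a log2 difference of -0.68 and -0.49 and higher in MyS3KO by 0.58 and 0.61. Of 77 mitochondrial ribosomal protein genes, 26 were lower and 1 higher in untreated Smad3fl/fl (12 and 2 with TGF-b1), and 9 were higher and 1 lower in untreated MyS3KO (20 and 0 with TGF-b1). Of 47 tested assembly factors, 5 were lower and 1 higher in untreated Smad3fl/fl (4 and 1 with TGF-b1), and 2 were higher and 0 lower in untreated MyS3KO (4 and 1), shares below those of all genes, with medians of -0.22, -0.21, 0.08 and 0.28. Sco1, a copper chaperone of complex IV, was lower in Smad3fl/fl, with a log2 difference of -1.61 and -1.51, and Ndufaf5, an assembly factor of complex I, with -1.18 and -1.17.

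Of 22 electron carriers and alternative inputs, 4 were lower and 2 higher in untreated Smad3fl/fl and 0 were higher and 3 lower in untreated MyS3KO. With TGF-b1 the counts were 3 lower and 3 higher, and 5 higher and 1 lower. Cyc1, the cytochrome c1 of complex III, was lower in Smad3fl/fl, with a log2 difference of -0.93 (adjusted p = 0.00384) and -0.81 (adjusted p = 0.0129), and higher in MyS3KO with TGF-b1 by 0.90 (adjusted p = 0.00691). Of 15 regulators of mitochondrial biogenesis, 2 were lower and 5 higher in untreated Smad3fl/fl (2 and 3 with TGF-b1) and 2 were higher and 2 lower in untreated MyS3KO (1 and 3). Ppargc1b, a coactivator of respiratory genes, was lower in Smad3fl/fl, with a log2 difference of -1.53 (adjusted p = 0.00127) and -2.24 (adjusted p = 0.000153) and higher in MyS3KO by 1.01 (adjusted p = 0.0348) and 1.12 (adjusted p = 0.029). Myc was higher in Smad3fl/fl by 1.85 and 1.73, and Gabpa, the DNA-binding subunit of GABP, by 0.92 and 0.94.

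Of 31 genes of mitochondrial DNA expression, 6 were lower and 4 higher in untreated Smad3fl/fl (4 and 3 with TGF-b1), and 3 were higher and 2 lower in untreated MyS3KO (2 and 5). Of 28 carriers, import and quality control genes, 8 were lower and 7 higher in untreated Smad3fl/fl (7 and 7 with TGF-b1), and 3 were higher and 5 lower in untreated MyS3KO (8 and 7). Of 10 uncoupling and oxygen defence genes, 4 were lower and 1 higher in untreated Smad3fl/fl (2 and 1 with TGF-b1), and 1 was higher and 0 lower in untreated MyS3KO (4 and 0), with medians of -0.45, -0.43, 0.20 and 0.56.

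The cytosolic ribosomal proteins, which are no part of the chain, differed in the same directions. Of 80 tested, 70 were lower in Smad3fl/fl in each treatment, with medians of -0.89 and -0.87, and 46 untreated and 71 with TGF-b1 were higher in MyS3KO than in Smad3fl/fl, with medians of 0.67 and 0.92. Their share of all counted reads was 1.97% in untreated Smad2fl/fl, 1.09% in Smad3fl/fl and 1.80% in MyS3KO on average. Gene length is another property these short transcripts share. In the 4 length classes the nuclear subunits had untreated medians of -0.60, -0.75, -0.74 and -0.54 between the floxed lines, from shortest to longest, beside 0.16, 0.01, -0.02 and 0.12 for all genes of the same class. The neutrophil markers ranged from 2.77 to 21 CPM in Smad3fl/fl and from 13.8 to 23 in MyS3KO. The endothelial markers summed to 104 to 132 CPM in untreated Smad2fl/fl, 42 to 120 in Smad3fl/fl and 76.5 to 138 in MyS3KO, and with TGF-b1 to 77.7 to 88.4, 32.5 to 64.3 and 48.5 to 100 in that order. The untreated ranges overlapped, and most of each sum was Kdr and Pecam1. Cdh5, of the same list, went the other way. Its means were 7.43, 9.16 and 6.57 CPM untreated and 8.37, 11.2 and 8.29 with TGF-b1, in the same order. The part of the ribosomal protein level, gene length or the marker genes in the subunit differences was not tested.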

How the data were processed

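RNA was selected with oligo-dT and sequenced as 150 bp pairs on a NovaSeq, per the labels' protocols. The submitters' processing notes list TopHat2 2.0.9, HTSeq 0.6.1 and Cufflinks 2.1.1 with builds mm10 and GRCm38.p6, without roles. For the strand setting and for reads with several matches, the rule is not given in the sources used here. The authors deposited a table of raw read counts per gene and one of FPKM, which equals the deposited counts divided by the column total and a length per gene (largest relative deviation 6.9e-15). Deposited FPKM was used only to rank genes by level. The counts summed to 16868501 to 24918582 per library.

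Counts were tested with edgeR 4.0.16 (quasi-likelihood, TMM, R 4.3.3, limma 3.58.1). Genes passing filterByExpr over the 8 groups (14261) entered a model of all 24 libraries, with Benjamini-Hochberg adjustment over all of them and calls at an adjusted p under 0.05. The residual degrees of freedom were 16, and the median biological coefficient of variation was 21.2%. CPM were scaled by TMM over tested genes. SE is the log2 difference divided by the square root of F. The procedure was tested on simulated counts for MyS3KO against Smad3fl/fl with TGF-b1. Of genes changed 1.5, 2 and 3 times, 13.4, 49.3 and 74.2% were called (9 of 67, 33 of 67 and 49 of 66). Of 14061 genes left unchanged, 2 were called. Most changes of 1.5 times were thus missed in the simulation. It changed 200 genes, whereas in the real contrast 15% of all tested genes were called higher and 13.2% lower. Its rates therefore need not hold for the real contrast. A gene or member that was not called is still not shown to be unchanged. Windows of 75 bases of each member's transcripts were looked up in all GENCODE M21 transcripts (GRCm38). Members were named if called (at most 4 per direction and comparison, by size), highest in FPKM in their complex, mitochondrial, or tissue forms; Atp5d, Atp5h, Ndufc2, Ndufs1, Ndufs6, Sdhb, Sdhc and Sdhd were added where a result turned on them or after their values were seen, and 1 member that the rule names is not reported here. The members and lists were chosen with earlier results of these data known. Same-numbered libraries correlated above 0.1 for every number in the TGF-b1 contrasts of MyS2KO (0.25, 0.33 and 0.55) and Smad3fl/fl (0.54, 0.42 and 0.42), so the numbers were taken as pairs there. Libraries of different numbers correlated at most at 0.29 in MyS2KO, above the 0.25 of number 1, and at most at -0.11 in Smad3fl/fl. The main calls and SE of these contrasts still come from the fit without a block, which does not use the pairs. Alternatives were DESeq2 1.42.0, its size factors, no filter, a replicate block, only the groups compared, leaving out libraries, and, chosen after seeing the data, summing members with pseudogene copies and omitting mitochondrial genes. Replicate libraries of a group all differed beyond sampling noise.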

Additional observations from a re-analysis of the deposited data

Results flagged for a closer look

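The effect of the Smad3 knockout lay above that of the Smad2 knockout, as a signed log2 change and by edgeR's test of the difference itself, at 9 members in untreated cells and at 8 with TGF-b1. The untreated differences (log2, MyS3KO effect less MyS2KO effect) were 0.73 for Cox7a2, 0.83 for Ndufa4, 1.01 for Uqcrh, 0.86 for mt-Co1, 0.89 for mt-Cytb, 0.86 for mt-Nd2, 0.91 for mt-Nd4, 1.64 for mt-Nd4l and 0.88 for mt-Nd5, with adjusted p from 0.00742 (mt-Nd4) to 0.0334 (Ndufa4). For mt-Nd2 and mt-Nd4l neither knockout effect passed by itself, at 0.22 (adjusted p = 0.347) and 0.65 (adjusted p = 0.124) in the Smad3 line and -0.65 (adjusted p = 0.129) and -1 (adjusted p = 0.261) in the Smad2 line, where the change was the larger in size. With TGF-b1 the differences were 0.83 for Atp5a1, 0.75 for Atp5h, 0.87 for Ndufa4, 0.93 for Ndufb4, 0.93 for Ndufv2, 0.94 for Sdhc, 1.27 for Uqcrc2 and 1.31 for Uqcrh, with adjusted p from 0.00455 (Uqcrh) to 0.0403 (Atp5h). With 1 library left out, the calls of mt-Co1 and mt-Nd4 held throughout, as did that of Uqcrh with TGF-b1, and every other one was lost at least once. Each difference also holds the gap between the 2 floxed lines, which enters it as the control of both effects. Of Ndufb4, 35.2% of the windows are shared with a pseudogene, and its part in the result was not tested.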

How the results depend on the processing

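Counts of called members were recomputed under each alternative. For TGF-b1 in Smad2fl/fl (1 in the fit reported) there were 2 with DESeq2's size factors, 0 without a filter, 5 with DESeq2 and 9 with only the groups compared. For TGF-b1 in Smad3fl/fl (1) there were 2 with DESeq2, and 0 with only the groups compared or without both Smad3fl/fl libraries numbered 3. DESeq2 gave 1 for TGF-b1 in MyS3KO (0) and 1 for MyS2KO against untreated Smad2fl/fl (0), where no filter also gave 1. MyS3KO against untreated Smad3fl/fl (32) gave 1 with only the groups compared and 52 without the libraries numbered 3, and untreated Smad3fl/fl against Smad2fl/fl (60) gave 35 with only the groups compared. Summing with pseudogene copies left 2 for MyS3KO against untreated MyS2KO (4). The difference of knockout effects gave, untreated (9), 16 without a filter, 21 with DESeq2, 0 with only the groups compared and 40 without the libraries numbered 3, and with TGF-b1 (8) 16, 17, 24 and 22 in that order. The shares of all tested genes called under these settings are not given, so the moves are not read as particular to the subunits. Their cause was not tested.

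With the replicate number as a block, the counts were 13 for TGF-b1 in Smad2fl/fl, 4 in Smad3fl/fl, 3 in MyS3KO and 16 for the TGF-b1 difference of knockout effects, or 14.1, 4.35, 3.26 and 17.4% of tested members beside 22.7, 23.2, 19.3 and 8.01% of all tested genes under the block; the block changed no other count by more than 1.5 times. Of the contrasts with a moved count, only TGF-b1 in Smad3fl/fl had libraries taken as paired; the libraries of the other 3 share only a number.

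Leaving out 1 library at a time gave 0 to 3 calls for TGF-b1 in Smad2fl/fl, 0 in MyS2KO, 0 to 2 in Smad3fl/fl and 0 to 1 in MyS3KO. It gave 13 to 52 and 22 to 39 for MyS3KO against Smad3fl/fl, 46 to 70 and 28 to 47 between the floxed lines, 2 to 4 and 1 to 5 for MyS3KO against MyS2KO, and 3 to 40 and 1 to 22 for the difference of knockout effects, untreated and with TGF-b1. The log2 ratio of nuclear to mitochondrial sums ranged under the same omissions from -0.04 to 0.23, -0.15 to 0.23, -0.50 to -0.28 and 0.18 to 0.39 for TGF-b1 in Smad2fl/fl, MyS2KO, Smad3fl/fl and MyS3KO. It ranged from 0.04 to 0.42 and 0.00 to 0.26 for MyS2KO against Smad2fl/fl, -0.23 to -0.01 and 0.48 to 0.62 for MyS3KO against Smad3fl/fl, -0.20 to 0.08 and -0.64 to -0.45 between the floxed lines and -0.59 to -0.21 and -0.24 to 0.01 for MyS3KO against MyS2KO.

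With the median gene of each genome the ratio was -0.25 for TGF-b1 in Smad2fl/fl (0.11 from sums), 0.00 in MyS3KO (0.29), 0.17 for MyS3KO against Smad3fl/fl with TGF-b1 (0.56) and -0.24 between the floxed lines with TGF-b1 (-0.55). Without mt-Co1 it was 0.75 and -0.72 for the last 2, and -0.30 between the untreated floxed lines (-0.04). The median mitochondrial gene was mt-Nd6 in the libraries of these comparisons, so the values from the median gene rest on it.

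Directions turned for Ndufs5 summed with its copy (0.52 for MyS3KO against Smad3fl/fl and 0.22 against MyS2KO, both with TGF-b1) and for Cox7a2l summed with its copy (0.03, MyS3KO against untreated MyS2KO). Of the other values of single genes with 1 library left out, 638 stayed on the same side of the threshold, 234 lost the call and 4 gained it. Under the remaining settings 819 stayed, 70 lost it and 2 gained it. Genes of under 1 CPM, such as Ndufa5, Cox4i2 and mt-Atp8, rest on few reads.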

Other observations

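Among listed genes outside the chain, Polg and Pparg were called for TGF-b1 in all 4 genotypes, Ttc19 in 3 and Ppargc1b in 2. Polg, the catalytic subunit of the polymerase that copies mitochondrial DNA, rose in Smad2fl/fl from 10.6 ± 1.34 to 30.4 ± 5.09 CPM (SD, n = 3), a log2 change of 1.52 ± 0.22 (SE; adjusted p = 3.87e-05 by edgeR's quasi-likelihood test). It rose by 1.44 in MyS2KO (adjusted p = 0.000218), by 1.21 in Smad3fl/fl (adjusted p = 0.000435) and by 1.26 in MyS3KO (adjusted p = 0.000351). Of the 31 tested genes of mitochondrial DNA expression, 1 or 2 were called higher in each genotype, so Polg did not stand for its list.

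Pparg, a nuclear receptor of lipid metabolism, fell by 1.51 on the log2 scale in Smad2fl/fl (adjusted p = 3.19e-06), by 1.01 in MyS2KO (adjusted p = 0.000903), by 1.67 in Smad3fl/fl (adjusted p = 1.33e-06) and by 1.38 in MyS3KO (adjusted p = 1.52e-05). Ttc19, an assembly factor of complex III, rose by 0.77 (adjusted p = 0.00654), 0.82 (adjusted p = 0.0105) and 0.86 (adjusted p = 0.00192) in Smad2fl/fl, MyS2KO and Smad3fl/fl. Ppargc1b fell by 1.66 in Smad3fl/fl (adjusted p = 0.003) and by 1.54 in MyS3KO (adjusted p = 0.00338), at 3.18 ± 1.8 CPM untreated and 0.992 ± 0.549 treated in Smad3fl/fl. Whether any of these responses differed between genotypes is not read from these calls.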
